A study of Mus musculus with 359 samples.

Results

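The genes described are 10 markers of alveolar type 1 cells, Ager, Hopx, Aqp5, Pdpn, Rtkn2, Clic5, Akap5, Emp2, Igfbp2 and Col4a3, taken by name from the 24421 genes counted in lung. They were followed in the lung libraries of B6C3F1 mice, a hybrid of the C57BL/6 and C3H strains, given 4-methylimidazole (4-MEI), a small imidazole compound found in caramel colourings. Males and females were given 0 (vehicle), 50, 100, 200 or 300 mg/kg-d of 4-MEI by gavage for 2 days, or 0, 150, 300, 1250 or 2500 ppm in feed for 5 or 28 days. The lung libraries fall into 30 groups, 29 with 6 libraries and 1, the females fed 2500 ppm for 5 days, with 5. The labels give no age and no vehicle substance, and do not say that libraries came from separate animals, so p-values measure the spread between these libraries.

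Alveolar type 1 cells are the very flat cells that cover most of the gas exchange surface of the lung. They share a thin basement membrane with the capillaries beneath them, and are renewed from type 2 cells, which make surfactant. The 10 genes cover several roles. Ager encodes RAGE, a receptor held in the basal membrane of type 1 cells, and Pdpn encodes podoplanin, a mucin-like surface glycoprotein. Aqp5 is a water channel of the apical membrane, and Emp2 is a tetraspan membrane protein. Clic5 is an intracellular chloride channel family protein linked to the actin cytoskeleton, and Akap5 is an anchor for protein kinase A. Hopx is a homeodomain protein that binds no DNA itself. Igfbp2 is a secreted binding protein of insulin-like growth factors, and Col4a3 is a chain of type IV collagen in the basement membrane.

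On GRCm38 (GENCODE M21), Pdpn lies at chr4:143267431-143299564 and Emp2 at chr16:10281749-10313968, both on the minus strand. Aqp5 lies at chr15:99590782-99594829 and Igfbp2 at chr1:72824503-72852474, both on the plus strand. Ager lies at chr17:34597862-34600936, Hopx at chr5:77086988-77115121, Rtkn2 at chr10:67979570-68059740 and Clic5 at chr17:44188584-44280172. Akap5 lies at chr12:76324891-76334153 and Col4a3 at chr1:82586921-82722059. Counts were summed by gene, so no value belongs to 1 exon.

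Pdpn, Emp2 and Igfbp2, which fell in treated mice of at least 1 sex at day 2, have a RefSeq start at or upstream of the annotated gene, and the 250 bases before that start are shown so that the genes can be compared. Sequences are RefSeq's on GRCm38.p6, written 5′ to 3′ on the gene's own strand. Capitals mark matches on either strand to any of 8 motifs searched: the E-box CACGTG, the GC box GGGCGG, the AHR core GCGTG, the TEAD site GGAATG, the TATA box TATAAA, the CCAAT box CCAAT, the NKX2-1 core CTCAAG and the AP-1 site TGANTCA.
Pdpn, chr4:143299565-143299814, minus strand: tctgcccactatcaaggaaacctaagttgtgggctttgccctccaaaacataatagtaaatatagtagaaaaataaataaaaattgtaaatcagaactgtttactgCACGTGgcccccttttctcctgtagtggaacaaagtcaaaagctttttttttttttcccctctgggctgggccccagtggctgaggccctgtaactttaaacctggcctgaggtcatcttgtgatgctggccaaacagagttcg
Emp2, chr16:10313969-10314218, minus strand: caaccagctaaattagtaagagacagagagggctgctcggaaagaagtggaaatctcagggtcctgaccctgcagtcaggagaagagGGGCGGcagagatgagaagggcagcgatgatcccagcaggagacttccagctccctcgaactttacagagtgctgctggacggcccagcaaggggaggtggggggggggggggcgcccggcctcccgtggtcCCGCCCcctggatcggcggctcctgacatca
Igfbp2, chr1:72824230-72824479, plus strand: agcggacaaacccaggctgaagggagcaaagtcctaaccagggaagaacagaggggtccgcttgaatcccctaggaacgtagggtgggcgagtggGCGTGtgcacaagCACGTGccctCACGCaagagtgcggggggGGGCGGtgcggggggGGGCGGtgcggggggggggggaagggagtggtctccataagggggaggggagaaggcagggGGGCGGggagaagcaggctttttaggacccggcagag
The Pdpn window held 1 E-box and no other motif, the Emp2 window 2 GC boxes, and the Igfbp2 window 1 E-box with GC boxes and AHR cores. RefSeq gave 10 such windows for 8 of the genes. An E-box lay in 4 of these 10, those of Pdpn, Aqp5, Igfbp2 and Hopx, and in 6.02% of all 32851 RefSeq promoter windows. A GC box lay in 5 of the 10 and in 32.7% of all windows. The TEAD site and the TATA box lay in none of the 10, and in 12.6% and 12.4% of all windows. These matches describe the letters of the windows.

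All 10 genes passed the filter on low counts on each day, and the smallest count of any of them in any library was 756. Library totals ran from 7253910 to 21473135 counts. Levels are given as CPM, counts scaled to a common library size, library sizes adjusted by the trimmed mean of M-values (TMM). Compared per kilobase of exon in the 12 vehicle libraries of day 2, Ager had the highest level, 1161 CPM per kb (SD 97.9, n = 12), and Hopx followed with 598 (SD 30.7, n = 12). Emp2 came next with 276 (SD 11.04) and Clic5 with 233 (SD 11.9). Aqp5 stood at 178 (SD 22.2), Akap5 at 110 (SD 11.9), Pdpn at 103.1 (SD 11.3), Igfbp2 at 85.5 (SD 17.5), Rtkn2 at 60.01 (SD 4.52) and Col4a3 at 43.1 (SD 4.94). The ranges of Ager and Hopx, of Hopx and Emp2, of Aqp5 and Akap5, and of Rtkn2 and Col4a3 did not overlap in these libraries, whereas the other neighbours in this order did. On each of the days Ager was highest, Hopx next, then Emp2, and Col4a3 lowest. Between vehicle females and males none of the 10 genes was called at day 2, 5 or 28, where 0.164%, 0.293% and 0.364% of all genes were called in edgeR.

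The names were checked against the vehicle livers of the same series, an organ without alveoli. Ager, Aqp5, Pdpn and Rtkn2 reached at most 0.842 CPM in any of the 36 vehicle livers, and Col4a3, Akap5 and Clic5 at most 8.83 CPM. Emp2 ran from 6.07 to 30.5 CPM and Hopx from 28.5 to 78.5 CPM. Igfbp2 ran from 312 to 918 CPM in liver, above its level in lung, where the vehicle libraries held 104.6 to 289.7 CPM. The level of Igfbp2 thus did not set lung above liver. In whole lung, fewer cells of a type and less RNA per cell cannot be told apart.

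Some libraries stood apart. Replicate 66, a male given 300 mg/kg-d, held 5333 CPM of Ager, where the other 5 of its group held 1968 to 2318, and it had the highest Hopx, Aqp5 and Igfbp2 of its group and of the vehicle males. Its Akap5, Clic5, Col4a3, Emp2 and Rtkn2 were below all other libraries of both groups, with Col4a3 at 90.99 CPM against 378 to 489 in the other 5. Its summed type 2, club, ciliated and fibroblast markers were also the highest of day 2. Replicate 98, a male fed 150 ppm for 5 days, held the highest Ager (5066 CPM, next 3790), Hopx, Aqp5, Igfbp2 and Pdpn of its group and the lowest Clic5 (1178, next 1598), Emp2, Col4a3 and Akap5. Its type 2, club, ciliated and transitional alveolar state sums were the highest of day 5. Replicate 64, a female given 200 mg/kg-d, had the lowest Rtkn2 of its group. Its sums of lymphatic endothelium, transitional alveolar state, other type 1 cell, basement membrane and alveolar macrophage genes were the highest of day 2. Replicate 12, a vehicle female, held 309.7 CPM of summed liver cell markers, where the next library of the day held 13.85. At day 28 the titles and characteristics of 48 lung libraries named different doses, and those of 24 different sexes. Groups were taken from the titles, which the Y-linked genes matched in every lung library, whereas they went against the characteristics in the 24. Xist went against the title in 1 library, a female given 300 mg/kg-d at day 2.

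After 2 days of gavage, Pdpn fell in both sexes, and its group means were lower at each step of dose. On each day the title numbers also rise with dose within each sex, so dose and the order of the numbers cannot be told apart. In females the lowest, median and highest library held 164.4, 189.1 and 218.1 CPM with vehicle, 151.1, 168.6 and 180.6 at 50 mg/kg-d, and 128.8, 144.3 and 169.6 at 100 mg/kg-d. The 200 mg/kg-d group held 102.5, 127.5 and 154.4 CPM and at the highest dose 105.2, 119.5 and 134.4 CPM. All libraries of the higher pair of doses lay below every vehicle female, and at the lower doses the groups overlapped. The log2 fold changes (SE) were −0.22 (0.10), −0.41 (0.10), −0.57 (0.10) and −0.69 (0.10), with adjusted p of 1, 0.107, 0.000314 and 7.17e-06 in edgeR's quasi-likelihood test. All changes are on this log2 scale unless given in percent. At 300 mg/kg-d the level fell by 37.8%, with a 95% interval on the log2 scale from −0.88 to −0.49.

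In males Pdpn held 151.9, 182.2 and 208.3 CPM with vehicle. It held 148.7, 170.9 and 215 CPM at the lowest dose, 158.8, 162.6 and 179.9 at the next, 131.6, 139.2 and 167.6 at 200 mg/kg-d, and from 99.09 to 178.9 at the highest dose, where the mean was 135.3 CPM. Replicate 66 gave the highest value of that group, and the other 5, at 99.09 to 153.9 CPM, lay below every vehicle male but the lowest. The log2 fold changes were −0.06 (0.10), −0.14 (0.10), −0.33 (0.10) and −0.43 (0.10), and only the last was called (adjusted p 0.0329). Without replicate 66 it was −0.52 (adjusted p 0.00221). The call was lost when the fit held only the groups compared (−0.43, adjusted p 0.626) and without replicate 65, or without vehicle replicate 3, 5, 6 or 8, in turn (adjusted p up to 0.109). The dose trend, a line through the 5 group means given as the change over the full range, was −0.45 (SE 0.09, adjusted p 0.00328) in males and −0.65 (SE 0.09, adjusted p 3.8e-07) in females. Without the highest dose group the Pdpn trends were still called, in males with adjusted p 0.0286 and in females with 3.57e-05.

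**Figure D1:**
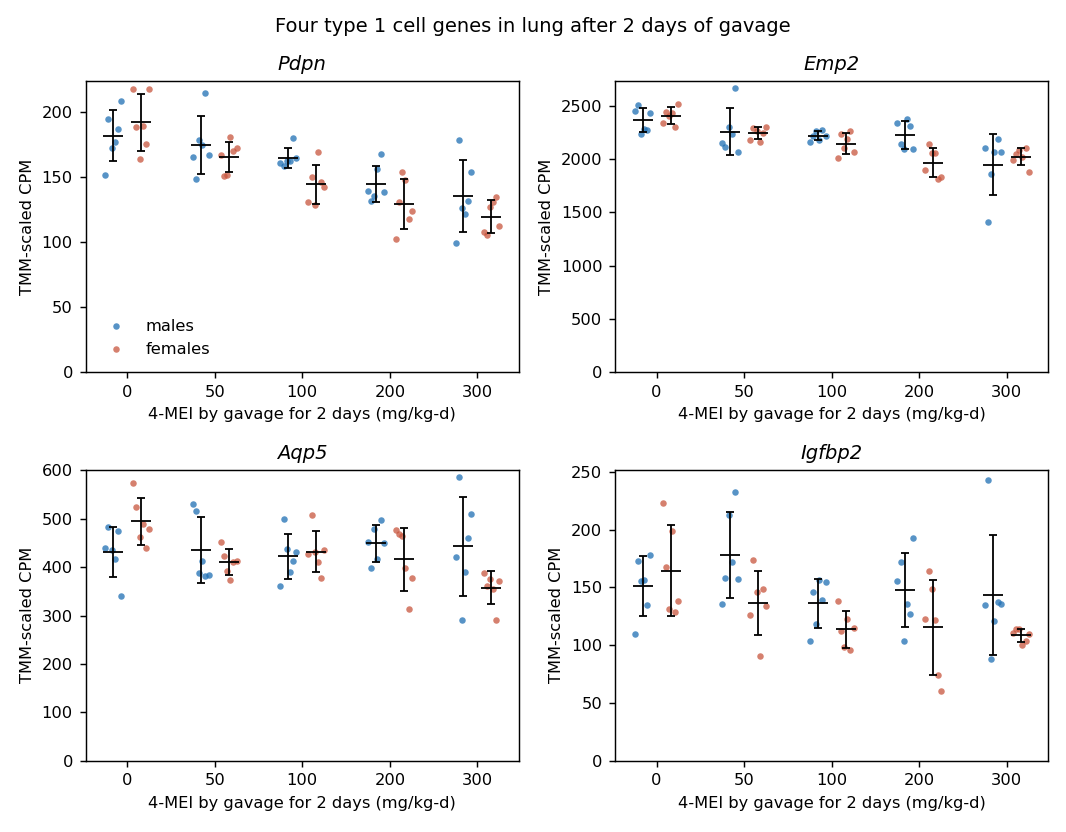
CPM of Pdpn, Emp2, Aqp5 and Igfbp2 in each day 2 lung library, by dose (mg/kg-d) and sex (males blue, females red), with the mean and SD of each group of 6 in black. Pdpn is lower at each step of dose in both sexes, Emp2 is lower at 300 mg/kg-d in both, and Aqp5 and Igfbp2 are low at 300 mg/kg-d in females, while replicate 66 is the highest male of its group in Aqp5 and Igfbp2.

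Emp2 was the only other of the 10 genes that fell in both sexes. In females it held 2298, 2418 and 2519 CPM (lowest, median, highest) with vehicle, 2165, 2258 and 2306 at 50, 2008, 2149 and 2261 at 100, 1817, 1976 and 2145 at 200, and 1884, 2034 and 2109 at 300 mg/kg-d. From 100 mg/kg-d upward every treated female lay below every vehicle female. The 200 mg/kg-d group changed by −0.29 (SE 0.06, adjusted p 0.00403) and the 300 mg/kg-d group by −0.25 (SE 0.06, adjusted p 0.00753), where the level fell by 15.9%. In males the values were 2235, 2358 and 2508 with vehicle and 1407, 2068 and 2188 at 300 mg/kg-d, again without overlap, and the log2 fold change was −0.28 (SE 0.06, adjusted p 0.0329). Without replicate 66, the library at 1407 CPM, it was −0.20 (adjusted p 0.0315). The male call was lost with only the groups compared (adjusted p 0.814), with a trend on transcript length removed (−0.21, adjusted p 0.0651) and without any of 5 vehicle libraries in turn (replicates 1, 3, 5, 6 and 8). At 50, 100 and 200 mg/kg-d the male changes were −0.07, −0.09 and −0.09. Without the highest dose the male trend, still scaled to 300 mg/kg-d, was −0.12 (adjusted p 0.467).

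Aqp5 and Igfbp2 were called lower in females at 300 mg/kg-d alone. Aqp5 held 439, 484 and 574 CPM in vehicle females and 292, 366 and 389 at 300 mg/kg-d, without overlap, and its log2 fold change was −0.47 (SE 0.11, adjusted p 0.00332). At 50, 100 and 200 mg/kg-d it was −0.27, −0.19 and −0.25, none of them called, and the female trend of −0.36 (adjusted p 0.00508) was not called without the highest dose (adjusted p 0.156). Males held 340, 436 and 483 CPM of Aqp5 with vehicle and 290, 440 and 586 at 300 mg/kg-d, a log2 fold change of 0.04 (95% interval −0.18 to 0.25). The effect in females minus that in males was −0.51 (SE 0.15, unadjusted p 0.00151), which did not pass the adjustment over all genes (adjusted p 0.338).

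Igfbp2 held 128.9, 152.9 and 222.9 CPM in vehicle females and from 100.6 to 114.4 CPM at 300 mg/kg-d. The 6 treated libraries lay close together and below every vehicle library, with a log2 fold change of −0.60 (SE 0.19, adjusted p 0.0324). The vehicle group was spread widely, and this call was lost without vehicle replicate 9, 10 or 13, or treated replicate 73, 76, 78 or 79, in turn, with adjusted p up to 0.116. From vehicle to the highest dose the female means of Igfbp2 were 164.6, 136.6, 113.6, 115.3 and 108.8 CPM, already low from 100 mg/kg-d. Its changes at 50 and 100 mg/kg-d were −0.27 and −0.53, neither called. In males the change at 300 mg/kg-d was −0.08 (95% interval −0.45 to 0.29), and −0.29 (adjusted p 0.481) without replicate 66. That of females minus males was −0.52 (adjusted p 0.392), and −0.30 (adjusted p 0.785) without that library. The difference between the sexes was called for 0 of the 10 genes in edgeR, as for 0% of all genes, and 1964 genes had an unadjusted p under 0.05. The only genes of the 10 among these were Aqp5 and Ager. Ager's difference was −0.37 (unadjusted p 0.0385) and rested on replicate 66, since it was −0.04 (adjusted p 0.923) without it. Aqp5's difference was −0.41 (adjusted p 0.574) without that library. No gene of the 10 was called without replicate 66, or without replicates 66 and 78.

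Rtkn2 was called in females at 200 mg/kg-d alone, with −0.40 (SE 0.12, adjusted p 0.028). Vehicle females held 312, 338 and 357 CPM and the 200 mg/kg-d group 126.6, 264.9 and 321.5. The 126.6 CPM belonged to replicate 64, and without that library the change was −0.26 (adjusted p 0.196). All libraries at 50 and at 100 mg/kg-d lay below the vehicle females (267 to 304 and 237 to 292 CPM), with uncalled changes of −0.25 and −0.35, and at 300 mg/kg-d the value was −0.11. Rtkn2 thus followed no single order over dose. Clic5 stood at 1912 to 2309 CPM in vehicle females, 1233 to 1842 at 200 mg/kg-d and 1672 to 1946 at 300 mg/kg-d. Its changes of −0.32 (adjusted p 0.0632) and −0.20 (adjusted p 0.256) were not called in edgeR with all libraries. At 200 mg/kg-d Clic5 was called by DESeq2 (−0.32, adjusted p 0.0494), with the length trend removed (adjusted p 0.00521) and without replicate 66 (adjusted p 0.000838). It was not called without replicate 64, the library at 1233 CPM, or with only the groups compared. Its side of the threshold thus depended on these choices.

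Ager, Hopx, Akap5 and Col4a3 were called at no dose. Ager, the most abundant of the 10 genes, held 2241, 2644 and 2890 CPM in vehicle females and 2046, 2312 and 2505 at 300 mg/kg-d, a change of −0.19 (95% interval −0.43 to 0.05). In males the change was 0.18 (95% interval −0.07 to 0.42) with replicate 66 in the group and −0.15 (adjusted p 0.299) without it. Hopx ran from 834 to 965 CPM in vehicle females and from 800 to 1017 at 300 mg/kg-d. For Hopx the change was −0.02 (−0.22 to 0.18) in females and 0.10 (−0.10 to 0.30) in males. Akap5 ran from 663 to 881 CPM in vehicle females and from 655 to 919 with the highest dose, and Col4a3 from 339 to 500 and from 377 to 435 CPM. For Akap5 the change was 0.08 (−0.19 to 0.34) and 0.04 (−0.22 to 0.30), and for Col4a3 −0.08 (−0.38 to 0.23) and −0.21 (−0.51 to 0.10). Without replicate 66 the male changes were −0.00 for Col4a3 (adjusted p 0.992), −0.07 for Hopx (adjusted p 0.74) and 0.20 for Akap5 (adjusted p 0.331). Reads of Hopx share 27.2% of its exon length with the antisense Hopxos. Rtkn2 shares 3.9% with an antisense gene and Col4a3 5.6% with a transcript on the other strand. The kit marks strand, but the counting setting is not given in the sources used here, so these reads may not be told apart.

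Counted over the list, 4 of the 10 genes were lower in females at 300 mg/kg-d, where 5.09% of all genes were called lower and 3.64% higher. At 200 mg/kg-d in females 3 were lower (2.37% of all genes lower and 3.04% higher). In males 2 were lower at 300 mg/kg-d (0.105% of all genes lower and 0.105% higher) and 0 at 200 mg/kg-d (0%). None of the 10 was higher in any of these. Every treated library lay below every vehicle library for 4 of 10 genes in females at 300 mg/kg-d (3.76% of all genes) and 1 of 10 in males (0.308%). In females the number was 3 at 200 (1.47%), 3 at 100 (0.814%) and 1 at 50 mg/kg-d (0.361%). None of the 10 was called at 50 mg/kg-d, where 0% of all genes were called lower in either sex, or at 100 mg/kg-d, where 0.00656% were called lower in each sex. Along the dose trend 4 fell in females (9.82% of all genes lower) and 2 in males (1.05%). The median change of the 10 genes at 300 mg/kg-d was −0.20 in females and −0.14 in males, beside 0.00 and 0.02 over all genes. At each dose 9 of the 10 values were below 0 in females, beside 47.7% to 50.4% of all genes. In males 5, 8, 6 and 6 of 10 were below 0 from the lowest dose to the highest, beside 45.3% to 50.9% of all genes. The genes are correlated, so their signs are not separate results. All these comparisons share the vehicle group of their sex.

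With the sexes averaged, Pdpn changed by −0.56 (SE 0.07, adjusted p 2.01e-07) and Emp2 by −0.26 (SE 0.04, adjusted p 4.58e-05) at 300 mg/kg-d, 2 of 10 genes lower beside 5.56% of all genes. At 200 mg/kg-d they changed by −0.45 (adjusted p 4.56e-05) and −0.19 (adjusted p 0.00922), beside 1.75% of all genes. At 50 and 100 mg/kg-d none was lower, beside 0% and 0.0131%. Pdpn ranked 4 by p-value among the 15240 genes tested at 300 mg/kg-d. The number of further genes called moved with replicate 66. Without it the mean over the sexes was −0.17 for Ager (adjusted p 0.0066), −0.26 for Aqp5 (adjusted p 0.00733), −0.13 for Clic5 (adjusted p 0.0311) and −0.45 for Igfbp2 (adjusted p 0.00882), so that 6 of the 10 genes were lower. The share of all genes called in either direction rose with it, from 10.4% to 21.6%. With that library Ager stood at −0.01 (95% interval −0.18 to 0.17). The same omission raised the count at 200 mg/kg-d from 2 to 4, adding Clic5 and Rtkn2, while the share of all genes went from 3.61% to 7.26%.

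**Figure D2:**
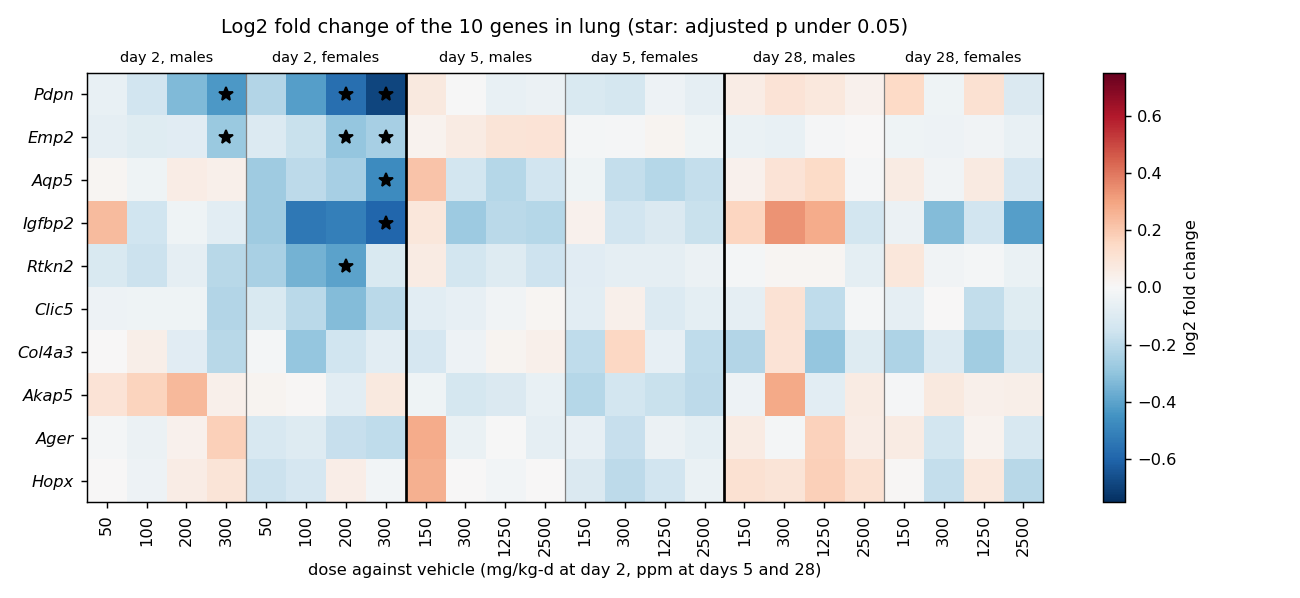
Log2 fold change against the vehicle group of the same day and sex for the 10 genes (rows) at each dose (columns), blue below and red above 0, with a star where the adjusted p was under 0.05. The 9 starred values are all at day 2 and all below 0, and the fed groups at days 5 and 28 stay between −0.42 and 0.33 with no star.

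Within each sex, feeding gave no called change in these genes. At days 5 and 28 the 10 genes were tested at 4 doses in both sexes, 160 tests, of which 0 passed, the smallest adjusted p being 0.191. Few genes of any kind were called in these comparisons. From 150 to 2500 ppm the shares of all genes called at day 5 were 0%, 0%, 0.0383% and 0% in males and 0%, 0.0128%, 0.0447% and 0.0319% in females. At day 28 they were 0%, 0%, 0.032% and 0.0128% in males and 0.032%, 0.153%, 0.0831% and 0.121% in females. The difference between the sexes in the effect of 2500 ppm was called for 0 of the 10 genes on either day (0% of all genes). An unadjusted p under 0.05 was found in 15 of the 160 tests (9.38%), and in 21 of the 80 at day 2, where 9 were called. Such p-values were common among all genes too. Their number ran from 338 of 15675 to 2204 of 15646 genes in the fed comparisons, and from 421 to 3526 of 15240 at day 2. The 160 log2 fold changes ran from −0.42 to 0.33. With the sexes averaged, Aqp5 at 1250 ppm for 5 days stood at −0.21 (SE 0.06, adjusted p 0.0632). It was called without replicate 98 (−0.21, adjusted p 0.0265, beside 2.67% of all genes) and by DESeq2 (−0.22, adjusted p 0.0311, beside 2.57%).

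Pdpn at day 5 held 202, 237 and 257 CPM in vehicle males and 212, 222 and 246 at 2500 ppm. Vehicle females held 215, 232 and 248, and the 5 females at 2500 ppm held 228, 233, 208, 213 and 224 CPM. At day 28 males held 196, 230 and 263 with vehicle and 194, 239 and 249 at 2500 ppm, and females 162, 213 and 236 against 162, 191 and 213. Each of these groups overlapped its vehicle group, though the day 28 females at 2500 ppm reached no higher than about their vehicle median. Over the 16 fed comparisons Pdpn ran from −0.13 to 0.15, with 95% intervals from −0.30 to 0.32, whereas the gavage changes in females reached −0.69. Gavage and feed doses are in different units and their tables were fitted apart, so their values are only set side by side.

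Emp2 was the steadiest of the genes under feeding, from −0.06 to 0.10. In males at day 5 its group means were higher at each step of dose, 2210, 2250, 2308, 2359 and 2374 CPM, with no comparison called. Aqp5 ran from −0.22 to 0.22. The 5 females fed 2500 ppm for 5 days held 509, 566, 456, 500 and 387 CPM of it, beside 514.5 to 567.7 in their vehicle group. Igfbp2 varied most. At 2500 ppm for 28 days it held 130.6, 154.5 and 192.9 CPM in females, against 140, 212 and 281 with vehicle, a change of −0.42 (SE 0.15, unadjusted p 0.00635, adjusted p 0.227). In males it was 0.33 at 300 ppm and −0.14 at 2500 ppm. Ager and Hopx had their highest fed values in males at 150 ppm on day 5, 0.28 and 0.26 (adjusted p 0.202 and 0.191). Both values leaned on replicate 98, without which Ager stood at 0.15 (adjusted p 0.94) and Hopx at 0.155 (adjusted p 0.922). The effect of 2500 ppm at day 28 minus that at day 5, tested over 16047 genes, was called for 0 of the 10 genes in either sex (0% of all genes), and for Pdpn it was 0.08 (SE 0.12) in males and −0.03 (SE 0.12) in females.

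**Figure D3:**
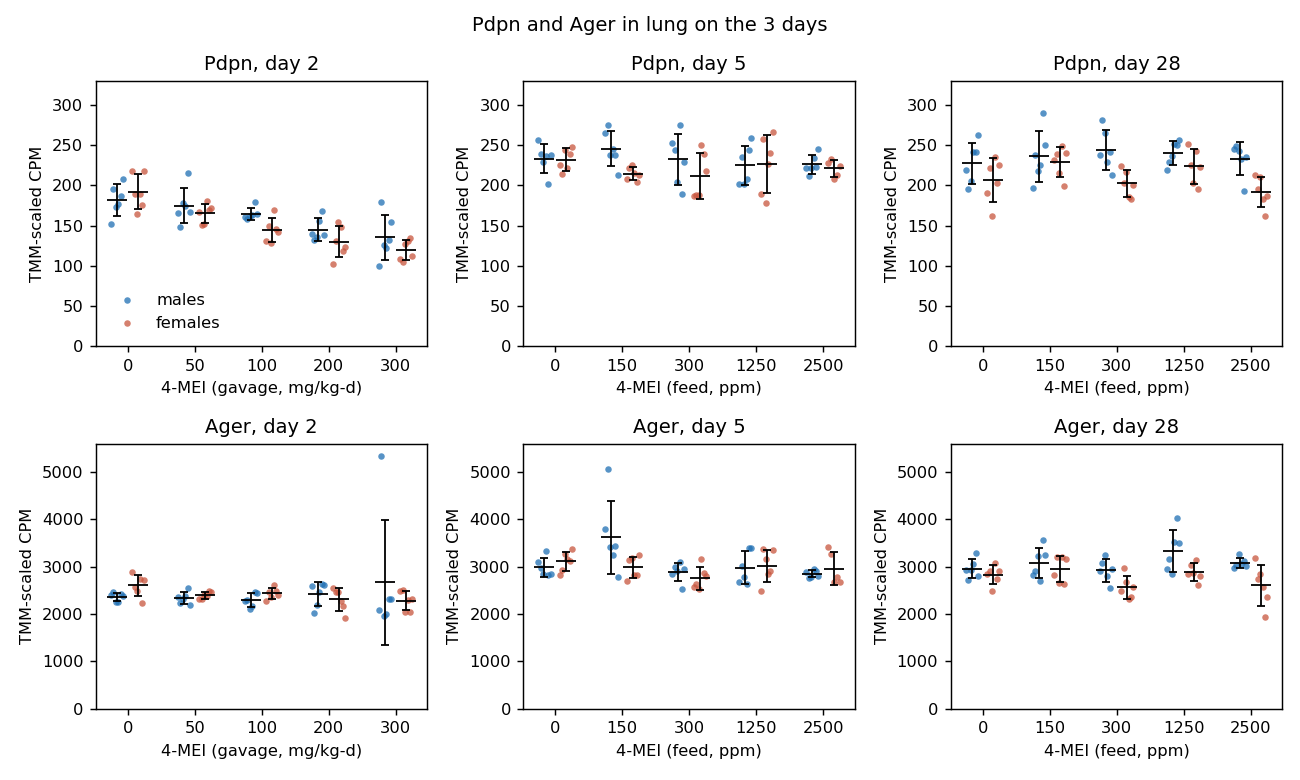
CPM of Pdpn (top) and Ager (bottom) in each lung library by dose and sex (males blue, females red) on the 3 days, with group means and SD in black. Pdpn is lower with dose at day 2, from group means of 192.4 to 119.6 CPM in females, and shows no such order at days 5 and 28, while Ager has no single order on any day and replicate 66 stands at 5333 CPM in the males given 300 mg/kg-d.

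Over all libraries the 10 genes fell into blocks, which were less distinct without replicates 66 and 98. After centring log2 CPM by group, their 45 pairwise correlations over all lung libraries had a median r of 0.2, and 31 were above 0. The 5 genes with 1516 to 2599 bases of exon, Hopx, Pdpn, Igfbp2, Ager and Aqp5, correlated with each other at r of 0.351 to 0.679. The 5 with 5547 to 9967 bases, Rtkn2, Akap5, Emp2, Clic5 and Col4a3, did so at 0.272 to 0.833. Between these blocks r ran from −0.378, for Ager with Col4a3, to 0.257, with a median of −0.04. Replicate 66, 1 of these libraries, had Ager, Hopx, Aqp5 and Igfbp2 above and all 5 long genes below the other 11 libraries of its group and the vehicle males. Without replicates 66 and 98, and centred again, r between the blocks ran from −0.119 to 0.48 with a median of 0.17, and 22 of its 25 values were above 0, beside 11 with them. Within the short genes r then ran from 0.247 to 0.617 and within the long genes from 0.128 to 0.742, and 42 of all 45 values were above 0. The low r between the blocks thus leaned on these libraries. The summed type 2 markers correlated with Ager at 0.79, Aqp5 at 0.684, Hopx at 0.628 and Pdpn at 0.496, and with Col4a3 at −0.429. Without replicates 66 and 98 these r were 0.643, 0.664, 0.478, 0.442 and −0.0564. Larger negative r were found with other cells. Club cell markers stood at −0.702 with Col4a3, −0.568 with Clic5 and −0.533 with Emp2, and without the same libraries at −0.525, −0.332 and −0.378. Ciliated cell markers stood at −0.646 with Col4a3 (−0.521 without them), and adipocyte markers at −0.608 with Emp2 (−0.615 without them). The libraries differ in depth. The part of transcript length in them was not tested. With a length trend removed from each library, the females at 300 mg/kg-d had 5 of the 10 genes lower, Clic5 being added, beside 10.5% of all genes called in either direction.

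**Figure D4:**
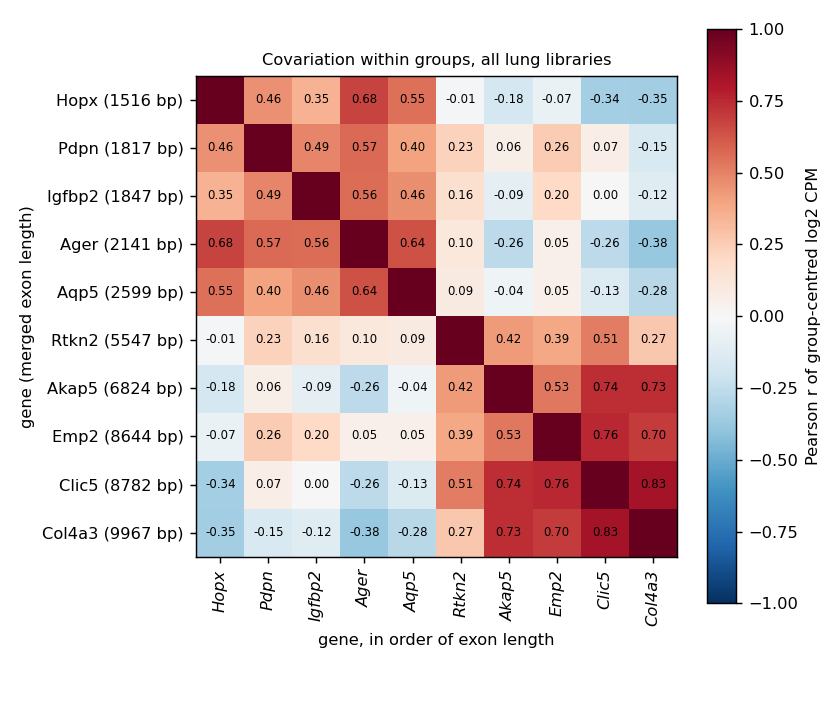
Pearson r between the 10 genes over all lung libraries after centring each gene within its group, with genes in order of merged exon length. The short genes and the long genes form separate blocks of positive r, from 0.351 to 0.679 and from 0.272 to 0.833, and r between the blocks does not exceed 0.257. Replicates 66 and 98 are included, and without them r between the blocks reaches 0.48.

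The genes most like the mean of the 10 in this variation, among 15151 others, were Arf3 (r 0.755), Cldn18 and Sptlc2 (both 0.726), Parva (0.702) and Fbln5 (0.701). Cldn18 encodes a tight junction claudin of alveolar epithelium. Most like Pdpn were Tspan8 (0.638), Atxn10 (0.635) and Plb1 (0.627). Most like Aqp5 were Cxcl16 (0.754) and the keratins Krt7 (0.729) and Krt19 (0.719).

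Other genes of the type 1 cell and its surroundings gave mixed counts in females at 300 mg/kg-d, where 5.09% of all genes were lower and 3.64% higher. Of 17 further type 1 cell genes, 2 were lower, Gprc5a at −0.43 (adjusted p 0.000338) and Vegfa, the endothelial growth factor, at −0.37 (adjusted p 0.0379). Timp3, an inhibitor of metalloproteinases, was higher at 0.46 (adjusted p 0.0155). Of 13 basement membrane genes 4 were lower, among them Col4a5 at −0.44, Col4a6 at −0.42 and Lamb3 at −0.30. Col4a3, which encodes a partner chain of Col4a5 in type IV collagen, was among the genes not called. Of 13 genes of the YAP, TAZ and TEAD regulators and their targets, Tead3 was higher at 0.25 and Ankrd1, a YAP target, lower at −0.69. None of 10 type 2 cell markers was called in these females. Nupr1, a stress response gene at 0.66, was the only gene called in these females of 9 genes of the transitional state between type 2 and type 1 cells. Of the same list, Cdkn1a was called in females at 200 mg/kg-d (2.15, adjusted p 0.00112), the group of replicate 64. Sfn was called over the mean of both sexes at 300 mg/kg-d (0.50, adjusted p 0.0274). In males at 300 mg/kg-d none of the genes of these 5 lists was called, while Gprc5a was −0.36 (adjusted p 1.41e-05) over the mean of both sexes.

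Markers of other cells and of the body clock also differed between dose groups at day 2, and their part in the results was not tested. Pdpn is also expressed by lymphatic endothelium, mesothelium and some fibroblasts. The summed lymphatic markers were 433 to 566 CPM in vehicle females and 583 to 983 at 300 mg/kg-d, with 1 of 4 tested genes higher and none lower. The fibroblast sum was 3354 to 4044 against 2678 to 3280 CPM, with 1 of 6 genes higher and 1 lower. The mesothelium sum was 224 to 403 against 143.4 to 406 CPM, with 1 of 5 genes lower. Aldh1a1 rose by 0.55 (adjusted p 7.68e-05), the only called gene of 6 club cell markers, whose sum was 31070 to 42470 against 35930 to 45860 CPM. No adipocyte marker of 4 was called, with sums of 15.95 to 205.7 against 93.48 to 208.5 CPM. Both liver cell markers tested were lower, Alb at −4.75 and Ahsg at −2.95, and replicate 12 was the vehicle library that held them. Without that library 4 of the 10 type 1 genes were still called in these females (7.43% of all genes in either direction). Of 5 skeletal muscle markers, 2 were higher, Tnnt3 at 2.35 and Mylpf at 1.65, with replicate 75 of the treated group holding a sum of 208.1 CPM, the highest of the day. Without replicate 75 the count of the 10 genes was again 4 (10.8% of all genes). T and NK cell markers fell in 5 of 6 genes, their sum being 40.7 to 72.7 CPM with vehicle and 13.97 to 46.8 CPM at 300 mg/kg-d. In the same females the clock gene Dbp had a median of 191.4 CPM with vehicle and 51 at 300 mg/kg-d, and Arntl 3.40 and 11.8 CPM. In males Dbp stood at 117.8 and 49.3 and Arntl at 5.24 and 9.89 CPM. The time of day of dissection is not given in the sources used here. Within groups the correlation of Pdpn with Dbp was 0.036 and with Arntl −0.0646 over all lung libraries. Over the 10 genes r ran from −0.165 (Akap5) to 0.201 (Aqp5) with Dbp, and from −0.167 (Clic5) to 0.221 (Akap5) with Arntl. Centring by group removes the shift between doses, so these r say nothing about it.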

How the data were processed

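Total RNA of 179 lung libraries was analysed. The labels' protocols name the Illumina TruSeq Stranded mRNA kit. Tools listed in the submitters' processing notes are Trimmomatic, Bowtie2, SAMtools and HTSeq, with build mm10. The sources used here give neither versions nor the annotation and strand setting. The authors deposited unnormalized counts, 1 table per tissue and day. In the lung table of day 28, 1 column without a name was left out.

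Tests were edgeR 4.0.16 quasi-likelihood fits (R 4.3.3) with filterByExpr, TMM scaling and robust dispersions, fitted on all 10 groups of a table. Benjamini-Hochberg adjustment ran over all genes tested (15240, 15675 and 15646 at days 2, 5 and 28), and "called" means an adjusted p under 0.05. The SE is the log2 fold change over the root of the test statistic. Trends are least-squares slopes over dose times the highest dose, also where the highest dose group was left out. The tables of days 5 and 28 were joined for their difference. Correlations used log2 CPM with 0.5 counts added. On simulated females at 300 mg/kg-d (15177 genes) the fit recovered 32% of 1.2-fold, 70% of 1.35-fold, 88% of 1.5-fold and 96% of 2-fold changes, and 5.92% of its 152 calls were false.

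The alternatives tried were DESeq2 1.42.0 in place of edgeR, RLE scaling, all genes kept, fits on the compared groups alone, a term for the place of the title number in its block of 8, removal of a transcript length trend (GENCODE M21, lengths for 96.4% of genes tested), the trend without its highest dose, and fits without single libraries. The place term varies only within a block, so it cannot separate dose from the order of the blocks, which follows dose. For the trend and the mean of both sexes, leaving out libraries and removing the length trend, and for the mean also the place term, were chosen after seeing the data, as were the sex difference without replicate 66, the day 5 fits without replicate 98 and the correlations without both. The members and lists were chosen with earlier results of these data known. The 10 genes are each described, and of other lists up to 4 called genes with the smallest adjusted p, of which 1 is not reported here. Promoters were matched by symbol for 8 of the 10 genes, Rtkn2 and Col4a3 being named only.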

Additional observations from a re-analysis of the deposited data

Results flagged for a closer look

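Within each group of 5 or 6 libraries, the highest or lowest library was compared with its nearest neighbour by Dixon's test on log2 CPM. Of 300 groups 21 (7%), in 14 libraries, held a library set apart, and chance sets apart about 1 in 20. Replicate 66 (male, 300 mg/kg-d, day 2) accounted for 7. It was highest in Ager at 5333 CPM (next 2318) and in Hopx at 1501 (937), and lowest in Akap5 at 303 (763), Clic5 at 764 (1807), Col4a3 at 90.99 (378), Emp2 at 1407 (1857) and Rtkn2 at 189 (279).

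At day 2, the other libraries set apart were replicate 64 (female, 200 mg/kg-d) with Rtkn2 at 126.6 CPM (next 241), replicate 78 (female, 300 mg/kg-d) with Aqp5 at 292 (354), and 2 males given 100 mg/kg-d, replicate 36 with Rtkn2 at 368 (296) and replicate 39 with Pdpn at 179.9 (164.6). Replicate 78 is the female in which Xist did not match the title, and without it Aqp5 changed by −0.42 (adjusted p 0.0155) in females at 300 mg/kg-d.

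At day 5 they were replicate 89 (vehicle female) with Igfbp2 at 104.6 CPM (168.6), a male at 300 ppm with Igfbp2 at 282 (188.5), a male at 2500 ppm with Hopx at 983 (1055) and a female at 2500 ppm with Clic5 at 1507 (1637).

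At day 28, replicate 217 (female, 1250 ppm) was lowest in Clic5 at 927 CPM (1493) and highest in Hopx at 1553 (1064), as replicate 66 was in these genes. Replicate 98 (male, 150 ppm, day 5), which also had the highest Hopx and the lowest Clic5 of its group, was not set apart by this test in any of the 10 genes. Replicate 162 (vehicle male) was lowest in Akap5 at 456 (609), replicate 171 (vehicle female) in Aqp5 at 350 (464), replicate 225 (male, 2500 ppm) in Clic5 at 1206 (1598) and replicate 230 (male, 2500 ppm) in Pdpn at 194 (233).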

How the results depend on the processing

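No call of the 10 genes changed direction under any alternative run. Pdpn, Emp2 and Aqp5 stayed called in females at 300 mg/kg-d in each of these fits, with Pdpn between −0.73 and −0.65, Aqp5 between −0.50 and −0.42 and Emp2 between −0.26 and −0.23 without single libraries. Of the values for single called genes 210 kept their side of the threshold and 27 lost the call, most of them Pdpn and Emp2 in males and Igfbp2 in females at 300 mg/kg-d.

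In fits on the compared groups alone, the number of the 10 genes called at day 2 was 0 in males at 300, 0 in females at 200 (Pdpn −0.57, adjusted p 0.0539), 2 in females at 100 (Pdpn and Rtkn2) and 5 in females at 300 mg/kg-d (Clic5 added), beside 0%, 0.068%, 0.72% and 18.5% of all tested genes in this order. DESeq2 called 1 of the 10 genes, Pdpn, in females at 100 mg/kg-d (0.0661% of all genes) and over both sexes at that dose (0.134%), 4 in females at 200 (Clic5 added, 6.36%), 3 over both sexes at 300 mg/kg-d (Aqp5 added, adjusted p 0.0481, 11.4%) and 1, Aqp5, over both sexes at 1250 ppm for 5 days (2.57%). The place term also added Aqp5 over both sexes at 300 mg/kg-d (adjusted p 0.0263, 12.5%). DESeq2 called 1.05% of all genes in males at 300 mg/kg-d, where the place term gave 0.505% and the reported fit 0.21%. With the length trend removed, 1 of the 10 was called in males at 300 mg/kg-d (0.295%) and 5 over both sexes at that dose (13.2%). Without the highest dose group the male trend was called for 1 (1.08%) and the female trend for 4 (14.4%). In females these were Pdpn, Emp2, Rtkn2 and Clic5, the last pair in place of Aqp5 and Igfbp2 in the reported trend.

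Leaving out 1 library gave 0 to 2 of the 10 genes in males at 300 mg/kg-d (0.0654% to 2.21% of all genes), 3 to 4 in females at 300 mg/kg-d (5.4% to 12.7% of all genes, reported 8.73%), and 2 to 5 in females at 200 mg/kg-d (0.903% of all genes without replicate 64 and 11% without replicate 66, reported 5.41%). It gave 0 to 1 in females at 100 mg/kg-d (0.137% of all genes without replicate 66), and over both sexes 0 to 1 at 100 (0.118% without replicate 66), 2 to 4 at 200 (2.55% to 7.26%) and 2 to 6 at 300 mg/kg-d (9.35% to 21.6%), where 4 were called without replicate 64 (13.6%). The female trend gave 4 to 6 (16.1% to 29.6%). At 1250 ppm for 5 days it gave 0 to 1 over both sexes (2.67% without replicate 98). The sex difference without replicate 66 and the day 5 fits without replicate 98 were chosen after seeing the data. The cause of these shifts was not tested. No paired analysis was possible because each lung group has its own title numbers, and numbers are shared only between liver and lung, which no test compared. In the simulated females at 300 mg/kg-d, with 6 libraries a group, the fit recovered 32% of 1.2-fold changes. Emp2 was called at −0.25 in the real comparison. The simulation drew each gene independently and changed genes picked at random. Its shares thus need not hold for Emp2 or for libraries like replicate 66. The feed tables were not simulated.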
